A study of Mus musculus with 33 samples.

Results

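Chromatin protein peaks at 5 genes of the BMP and TGF-beta pathway were examined in C2C12 cells, a mouse myoblast line that fuses into multinucleated myotubes when serum is lowered. The genes were Smad6, Smad7, Id1, Id2 and Id3. Members were all deposited peaks that overlapped a fixed window around each gene by at least 1 bp, in coordinates of mouse build mm9. The windows were chromosome 9 from 63785001 to 63885000 for Smad6 (100 kb), chromosome 18 from 75515001 to 75570000 for Smad7 (55 kb), chromosome 2 from 152555001 to 152570000 for Id1 (15 kb), chromosome 12 from 25770001 to 25790000 for Id2 (20 kb) and chromosome 4 from 135692001 to 135708000 for Id3 (16 kb). They held 232 of the 493022 peaks in 23 lists. Smad6 had 48 of these peaks, Smad7 95, Id1 28, Id2 39 and Id3 22. Pooled or single lists gave 131 of the 232 and replicate lists gave 101.

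The peaks came from ChIP-seq, in which sheared chromatin is pulled down through a protein bound to it and the recovered DNA is sequenced. Growing myoblasts, in 10% fetal bovine serum, had lists for ING1, Menin, MLL1, MLL3, Wdr5 and LSD1. Myotubes, kept for 96 h (4 days) in 2% horse serum, had lists for ING1, LSD1 and Sin3A. ING1 carried a Flag tag, was expressed from a retrovirus in a puromycin-selected stable line and was pulled down through the tag. The ING1 lists therefore report an ectopically expressed protein in both states. The other proteins were pulled down with antibodies against the proteins themselves. ING1 in myoblasts, Menin, MLL1 and Sin3A had 2 replicate lists each, ING1 in myotubes and Wdr5 had 3, and each of these 6 groups also had a pooled list. LSD1 in each state and MLL3 had a single list and no replicate check. These 3 lists are named as merged, and the number of libraries behind each is not given in the labels. The labels of the Sin3A samples give myotubes, whereas the series' design text places Sin3A in growing cells, and the MLL1 samples name Menin as their source. Sample titles and antibodies decided in both cases.

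BMP and TGF-beta ligands bind paired serine/threonine kinase receptors, which phosphorylate receptor Smads. These join Smad4, enter the nucleus and change the transcription of target genes. Smad6 and Smad7 are inhibitory Smads, induced by the pathway, that block receptors and receptor Smads and so close a negative feedback loop. Id1, Id2 and Id3 are classical BMP targets. Their products are helix-loop-helix proteins without a DNA-binding basic region, which capture E proteins and hold back MyoD in growing myoblasts. Of the mapped proteins, MLL1 and MLL3 methylate histone H3 at lysine 4 (H3K4), Wdr5 is a core subunit common to MLL complexes and Menin is a subunit of MLL1 and MLL2 complexes. ING1 reads trimethylated H3K4 and belongs to a Sin3 deacetylase complex that Sin3A scaffolds, and LSD1 removes methyl groups from H3K4.

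The letters just upstream of 3 of the genes are shown because Menin, MLL1, Wdr5 and ING1 are known to act at promoters. Each sequence is the 250 bases before the annotated start, 5′ to 3′ on the gene's strand, from RefSeq on assembly GRCm38.p6. That assembly is another build than that of the peaks, so the distance from these letters to a peak was not measured. Id1 and Smad7 had no entry. Capitals mark matches on either strand to the GC-rich motif GGCGCC, to the Smad box GTCT, to the MyoD-type E-box CAGCTG and to the E-box CACGTG. A Smad box on the other strand reads AGAC in these lines.
Smad6 (chr9:64022060-64022309, minus strand): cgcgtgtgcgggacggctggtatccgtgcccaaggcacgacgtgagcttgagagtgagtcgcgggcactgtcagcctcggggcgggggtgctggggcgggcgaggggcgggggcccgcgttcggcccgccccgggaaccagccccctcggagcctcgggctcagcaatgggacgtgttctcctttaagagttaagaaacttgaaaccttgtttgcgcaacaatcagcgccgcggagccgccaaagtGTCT
Id2 (chr12:25096093-25096342, minus strand): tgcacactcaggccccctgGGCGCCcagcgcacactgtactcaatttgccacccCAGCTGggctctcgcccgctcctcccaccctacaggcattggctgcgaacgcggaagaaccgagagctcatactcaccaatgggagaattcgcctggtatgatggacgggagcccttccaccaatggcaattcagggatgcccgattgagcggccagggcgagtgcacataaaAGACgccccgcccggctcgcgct
Id3 (chr4:136143572-136143821, plus strand): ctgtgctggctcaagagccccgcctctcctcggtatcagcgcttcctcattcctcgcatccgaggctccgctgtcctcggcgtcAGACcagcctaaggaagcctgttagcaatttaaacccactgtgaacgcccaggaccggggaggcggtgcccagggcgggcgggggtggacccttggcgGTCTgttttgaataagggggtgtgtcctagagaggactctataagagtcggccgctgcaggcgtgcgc
All 3 sequences were rich in G and C. The Smad6 sequence had a GC content of 66.8% with 27 CpG dinucleotides, and those of Id2 and Id3 each had 62.8% and 18, against medians of 52.4% and 6 over 32851 promoters of that length. GGCGCC, a motif of BMP-responsive elements, occurred 1 time in Id2 and in 9.59% of all promoters. The Smad box GTCT occurred 1 time in Smad6, 1 time in Id2 and 2 times in Id3, and in 82.9% of all promoters. CAGCTG, an E-box of the kind bound by MyoD, occurred 1 time in Id2 and in 13.0% of promoters, and its letters were also the single match there to the general E-box CANNTG, held by 66.2%. CACGTG matched none of the 3 and 6.02% of all promoters. Both strands were searched, and a match describes letters only.

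The lists gave the 2 ends of each peak and no height, so the sequencing depth behind a list is unknown. Pooled and single lists ran from 4442 peaks (LSD1 in myoblasts) to 218204 (MLL3), and replicate lists from 126 to 23164. Within a group the longest replicate list had up to 5528 peaks where the shortest had 428 (ING1 in myoblasts), or 9390 where the shortest had 430 (Sin3A). Labels do not state that replicates were separate cultures, so their spread may be technical. The deposited lists hold no expression, so the labelled cell states were not checked against marker genes. Percentages of covered bases below are bases of a window inside peaks of a list. As background, chromosomes 1 to 19 and X were laid out in back-to-back stretches of the same length as a window, and values are given beside the share of stretches that hold a peak or are covered as much. The position of peaks relative to exons, introns or UTRs was not analysed here.

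Of the 45 combinations of 9 pooled or single lists and 5 windows, 40 held at least 1 peak. Smad7 was reached by all 9 lists, Smad6, Id1 and Id3 by 8 and Id2 by 7. The 5 combinations without a peak were LSD1 in myoblasts at Smad6, MLL1 at Id1, LSD1 in either state at Id2 and LSD1 in myotubes at Id3. Menin covered the most bases of any list at 4 of the windows, 57.4% of Smad7, 53.7% of Id1, 46.3% of Id3 and 45.3% of Id2. At Smad6 the largest share was that of MLL3, 15.3%, with Wdr5 at 6.57% and Menin at 6.37%. The heat map of covered bases shows this contrast between the Menin and the other lists.

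**Figure D1:**
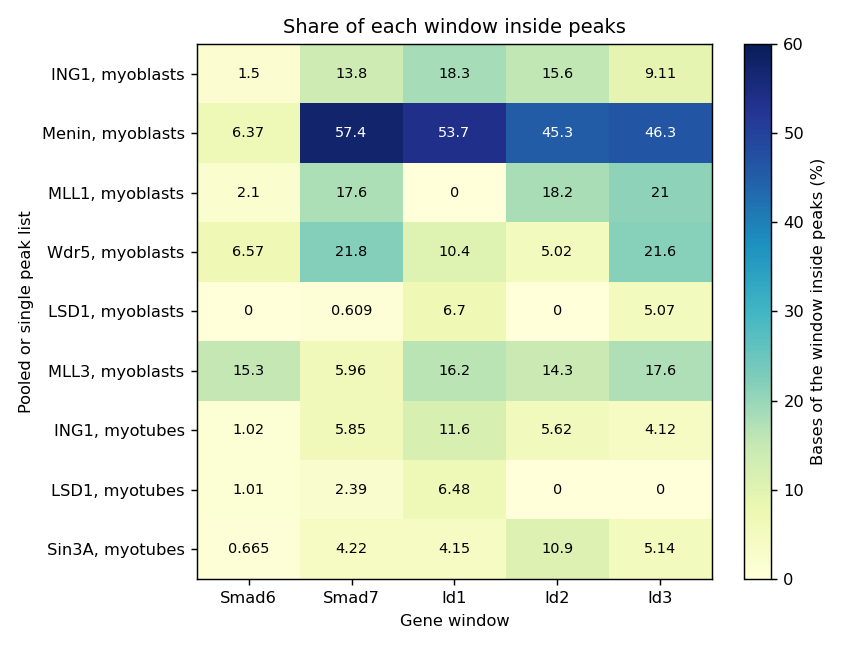
Heat map of the percentage of bases of each gene window (columns) inside peaks of each pooled or single list (the 9 lists, as labelled); darker cells are more covered. Menin is the darkest in the Smad7, Id1, Id2 and Id3 columns, from 45.3% to 57.4%, while no list passes 15.3% at Smad6.

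As many lists together in 1 stretch of the same length were uncommon for the short windows and common for the longest. Peaks of at least 8 lists were found in 1.54% of stretches as long as the Id1 window and in 1.69% of those as long as the Id3 window. At least 7 lists met in 3.78% of stretches of the Id2 length, and all 9 in 2.77% of those of the Smad7 length. At the 100 kb of Smad6, 11.9% of stretches held at least 8 lists. Among stretches with a peak of any list these shares were 2.46% for Id1, 2.64% for Id3, 5.55% for Id2, 3.30% for Smad7 and 13.3% for Smad6. Other genes of the pathway were not counted, so nothing here is particular to these 5, and the shares describe the windows with no test.

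**Figure D2:**
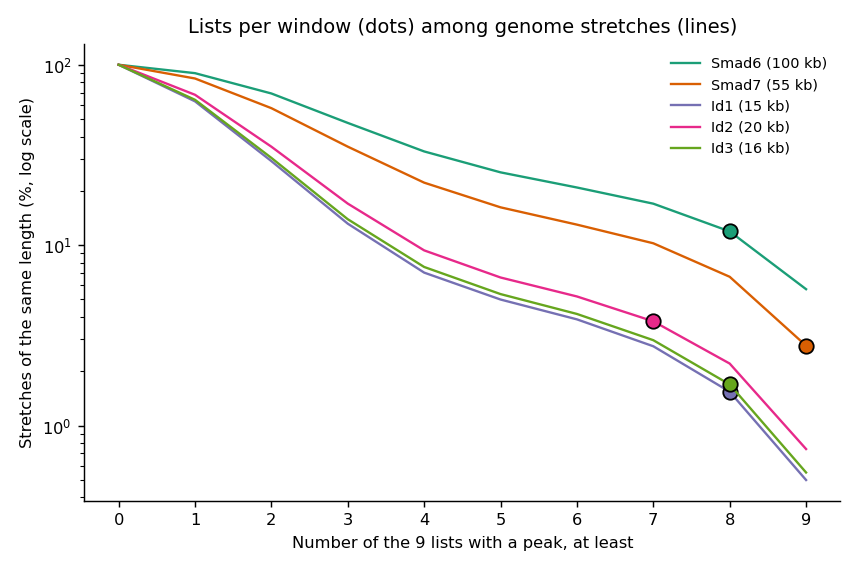
Share of genome stretches (%, log axis) that hold peaks of at least the number of lists on the horizontal axis, with 1 line per window length; each dot marks the number of lists at that gene. The dots of Id1 and Id3 lie at 1.54% and 1.69% of stretches, those of Smad7 and Id2 at 2.77% and 3.78%, and that of Smad6 at 11.9%.

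Smad6, which acts mainly against BMP receptors, had 1 region where ING1, Menin, MLL1 and Wdr5 met, with a long series of MLL3 peaks and some of Wdr5 and Menin elsewhere. The largest number of lists at any single base was 5, over 439 bp from 63868978 to 63869416 on chromosome 9. They were ING1 in both states, Menin, MLL1 and Wdr5. That stretch lay in a region of overlapping peaks from 63865158 to 63870831 (5674 bp), to which MLL3 and Sin3A also contributed, so 7 lists touched it. The Sin3A peak was 750 bp and the nearest MLL3 peak 2779 bp from the 439-bp stretch. The Menin peak there was 4665 bp wide, the ING1 myoblast peak 1497 bp, the MLL1 peak 1768 bp and the Wdr5 peak 2836 bp. For MLL1 all peak bases of the window lay in this region, for ING1 likewise in both states, and for Menin 84.2%. For Wdr5 it was 43.2%, since only 1 of its 6 peaks lay there.

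MLL3 had 21 peaks in the Smad6 window and only 6.81% of their bases lay in the region just described. Of 25 merged regions, 21 held 1 list, and 18 of these were MLL3 peaks alone. Only 1 of the 21 MLL3 peaks overlapped a Menin peak. The widest MLL3 peak there, 1783 bp from 63819625 to 63821407, overlapped no other list. MLL3 covered 15.3% of the window, and 11.9% of 100-kb stretches were covered as much. At the far end of the window Wdr5, MLL3 and LSD1 in myotubes overlapped a region from 63788791 to 63790385. The Wdr5 peak of that region (1366 bp) was the only pooled Wdr5 peak of the 5 windows found in all 3 Wdr5 replicate lists. The LSD1 peak (1008 bp) was 78685 bp from the shared stretch and was the only LSD1 peak of the window.

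Shares of 100-kb stretches with at least 1 peak give the scale for Smad6. They were 86.8% for MLL3, 66.8% for Wdr5, 45.9% for Menin, 28.8% for Sin3A, 21% for MLL1, 20.8% for ING1 in myotubes, 19.7% for LSD1 in myotubes, 19.1% for ING1 in myoblasts and 11.7% for LSD1 in myoblasts. An MLL3 or Wdr5 peak somewhere in 100 kb was thus the common case. Of such stretches, 2.49% were covered as much as the Smad6 window by MLL1, 4.39% by Wdr5 and 6.05% by ING1 in myoblasts. The share was 20.7% for Sin3A and 14.1% for Menin, and in myotubes it was 11.2% for ING1 and 10.1% for LSD1.

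Smad7, which acts on both the BMP and the TGF-beta branches, had the largest number of lists at a single base among the 5 windows. At this gene 8 of the 9 lists covered a common 136 bp, from 75528766 to 75528901 on chromosome 18, and MLL3 was the list that did not. The region around it spanned 8862 bp, from 75526967 to 75535828. A Menin peak of 8843 bp filled nearly all of it and was the 80th widest of 70050. The ING1 myoblast peak was 3825 bp wide, the 4th widest of 8196, and the MLL1 peak of 5624 bp was the 18th widest of 8892. Both replicate lists of ING1 in myoblasts, of Menin and of MLL1 met these 3 peaks.

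Menin extended over 8 pooled peaks, from 75522504 to 75555154, each met by both Menin replicate lists. In the replicate lists Menin covered 43.2% and 35.9% of the window. The share of 55-kb stretches covered as much as Smad7 differed widely between lists. It was 0.0146% by ING1 in myoblasts, 0.0375% by MLL1, 0.0729% by Wdr5 and 0.0750% by Menin. It was 0.456% by ING1 in myotubes, 2.28% by Sin3A, 4.90% by LSD1 in myotubes and 5.23% by LSD1 in myoblasts. For MLL3, whose 4 peaks covered 5.96% of the window, it was 34.3%. The Wdr5 share rests on the pooled list, which covered 21.8% of the window. Wdr5 replicate lists covered 6.02%, 0 and 0.878%, and 7 of the 12 pooled Wdr5 peaks met none of them. In myotubes 4 of the 5 pooled ING1 peaks and 2 of the 3 Sin3A peaks met no replicate list. The nearest MLL3 peak began 12392 bp from the shared 136 bp. Beyond the central region, ING1 in myoblasts, Menin, MLL1, Wdr5 and MLL3 contributed to a region from 75536003 to 75544328, and Menin, MLL1, Wdr5 and MLL3 to another from 75544429 to 75552301. In myotubes ING1 had 5 peaks of 309 to 1009 bp, Sin3A had 3 of 506 to 1145 bp and LSD1 had 2 of 578 and 735 bp, all between 75526436 and 75534077. The maps of the inhibitory Smad windows show the Smad7 peaks stacked over the shared stretch and the MLL3 peaks to one side of it.

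**Figure D3:**
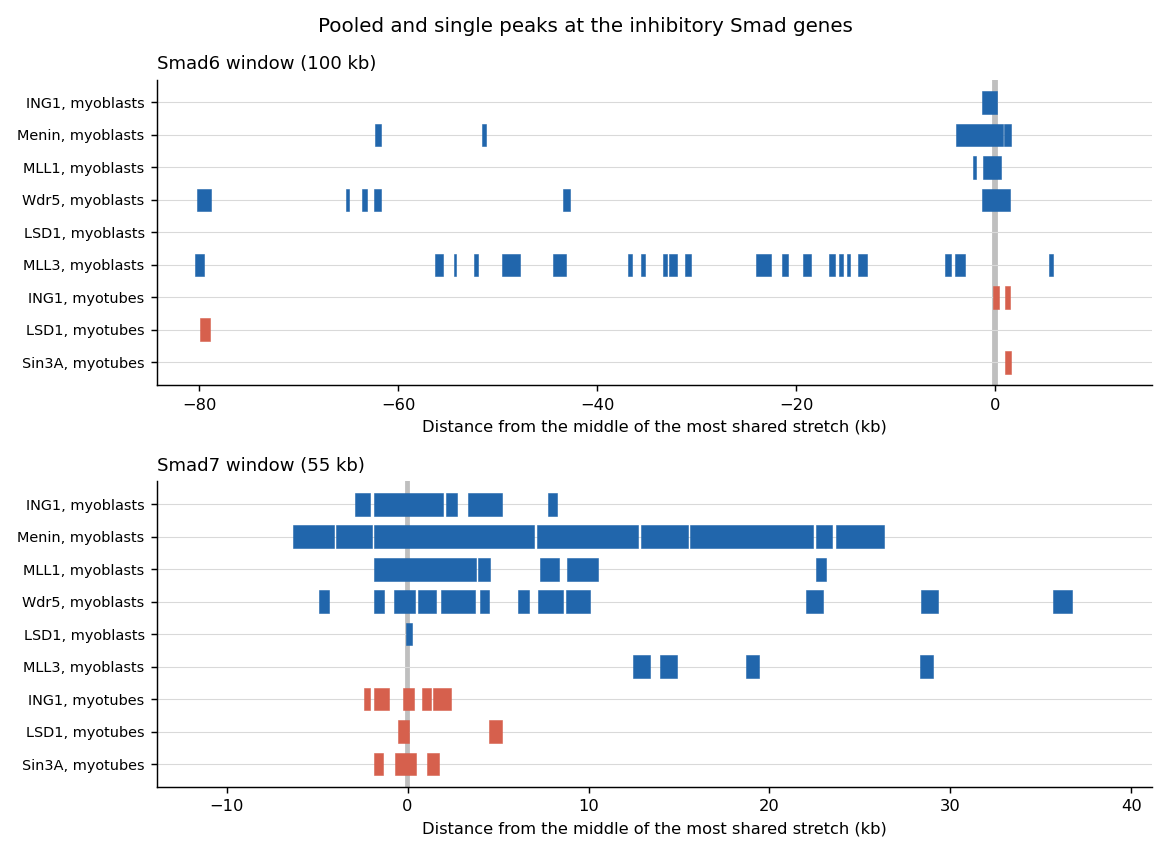
Maps of the Smad6 (top) and Smad7 (bottom) windows; the horizontal axis is distance in kb from the middle of the stretch shared by most lists (grey), and each bar is a peak of a pooled or single list, blue for myoblasts and red for myotubes. At Smad7 the bars of 8 lists cross the grey stretch and MLL3 does not; at Smad6 5 lists cross it and 21 MLL3 bars are spread over the window.

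Id1, a direct BMP target and inhibitor of myogenic differentiation, had a stretch shared by 7 lists, from 152562032 to 152562492 on chromosome 2 (461 bp). ING1, LSD1 and Sin3A were all there in myotubes, and ING1, Menin, LSD1 and MLL3 in myoblasts. No MLL1 peak was present in the pooled list or in either replicate list, although Menin had a peak of 5645 bp from 152560855 to 152566499 over the same bases. Wdr5 had 1 peak, 4375 bp from the shared stretch, in a second region from 152566811 to 152568430 that it formed with Menin and MLL3, and 2 of the 3 Wdr5 replicate lists met it. The LSD1 peaks of the 2 states began within 6 bp, at 152562005 in myoblasts and 152561999 in myotubes, with widths of 1005 and 972 bp. The myoblast peak was the 86th widest of 4442.

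ING1 in myoblasts covered 18.3% of the Id1 window, as much as 0.0671% of 15-kb stretches did, and its widest peak of 2190 bp was met by both replicate lists. In myotubes ING1 covered 11.6%, which 0.444% of stretches reached. For the other lists with a peak this share ran from 0.127% (LSD1 in myoblasts) to 12.5% (MLL3). At least 1 peak was found in 53.9% of 15-kb stretches for MLL3, 25.9% for Wdr5, 18.8% for Menin, 6.87% for Sin3A, 5.25% for LSD1 in myotubes, 4.58% for ING1 in myotubes, 4.29% for MLL1, 4.03% for ING1 in myoblasts and 2.2% for LSD1 in myoblasts. For MLL1, then, a window without a peak was the common case. The lists present at Id1 included the 2 with the lowest shares, LSD1 in myoblasts and ING1 in myoblasts.

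Id2, whose product also restrains E proteins, had no LSD1 peak in either state. Absence was the common case, since LSD1 had a peak in 2.88% of 20-kb stretches in myoblasts and 6.43% in myotubes. The shared stretch of Id2, 716 bp from 25780217 to 25780932 on chromosome 12, held 6 lists: ING1 in both states, Menin, MLL1, MLL3 and Sin3A. The region around it ran from 25778985 to 25784443 (5459 bp) and equalled the widest Menin peak. The ING1 myoblast peak there was 1742 bp, the Sin3A peak 1526 bp, the MLL1 peak 1454 bp, the ING1 myotube peak 1123 bp and the MLL3 peak 982 bp. A second region of 1247 bp, from 25785322 to 25786568, was formed by ING1 in myoblasts, Menin, MLL1, Wdr5 and Sin3A. The 2 pooled Wdr5 peaks, of 710 and 294 bp, lay there, 4494 bp from the shared stretch, and no Wdr5 replicate list met them. Wdr5 replicate 3 had its own peak in the first region, from 25783324 to 25783881 (558 bp), which the pooled Wdr5 list did not hold. ING1 in myoblasts covered 15.6% of the window and MLL1 18.2%, as much as 0.0576% and 0.0887% of 20-kb stretches did. For the other lists with a peak this share ran from 0.568% (Sin3A) to 14.5% (MLL3). Of the 4 pooled MLL1 peaks, 3 met no MLL1 replicate list, among them the peak on the shared stretch. The 2 replicate lists covered 4.35% and 0 of the window for MLL1, and 9.65% and 0 for ING1 in myoblasts.

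At Id3, the third of the Id genes, a region from 135695870 to 135703644 on chromosome 4 (7775 bp) gathered 8 lists, and 7 of them covered a common 316 bp from 135700512 to 135700827. These were ING1 in both states, Menin, MLL1, Wdr5, LSD1 in myoblasts and MLL3. The Sin3A peak ended 302 bp away, and LSD1 in myotubes had no peak. That LSD1 list had a peak in 5.52% of 16-kb stretches, so absence was the common case. The Menin peak of 7385 bp was the 164th widest of its list, and the MLL3 peak of 2511 bp was the widest MLL3 peak of the 5 windows, rank 3263 of 218204. MLL1 covered 21.0% of the window, as much as 0.0897% of 16-kb stretches did, and for the other lists with a peak this share ran from 0.306% (LSD1 in myoblasts) to 11.2% (MLL3). None of the 3 pooled MLL1 peaks met an MLL1 replicate list. The ING1 myoblast peak, 1458 bp from 135699773 to 135701230, was present with the same ends in replicate 2 and absent from replicate 1.

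**Figure D4:**
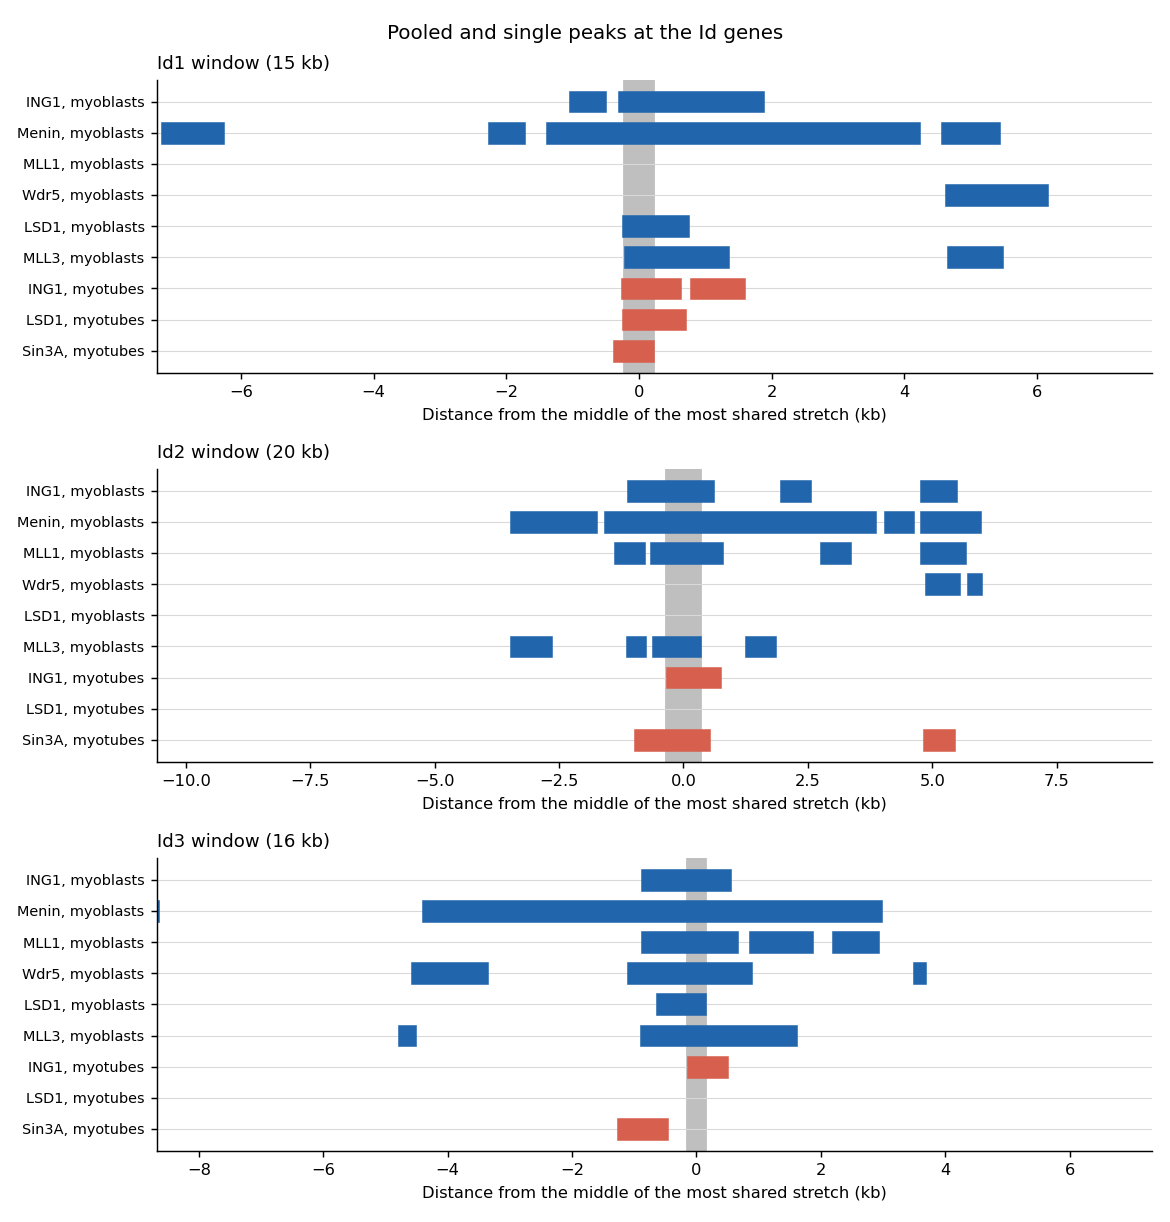
Maps of the Id1, Id2 and Id3 windows; the horizontal axis is distance in kb from the middle of the stretch shared by most lists (grey), and each bar is a peak of a pooled or single list, blue for myoblasts and red for myotubes. MLL3 crosses the grey stretch in all 3 maps, Wdr5 lies over 4 kb from it at Id1 and Id2, MLL1 has no bar at Id1, and LSD1 has none at Id2.

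The genes differed in which proteins sat where the others met. MLL3 had a peak on the shared stretch at Id1, Id2 and Id3 and none at Smad6 or Smad7. Genome-wide, 7969 stretches were covered by at least 5 of the other 8 lists and 16% of them held MLL3. Counted the same way, MLL3 was on 0 of 1 stretch at Smad6, 0 of 6 at Smad7, 1 of 1 at Id1, 1 of 2 at Id2 and 1 of 1 at Id3. Absence of MLL3 was thus the usual state, and its presence at the Id genes the less frequent one. The MLL3 list was also the longest. With each list shortened to its 4442 widest peaks, MLL3 stayed on the stretch shared by most lists at Id3 but was on that of neither Id1 nor Id2.

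Wdr5 was on the shared stretch at Smad6, Smad7 and Id3 but not at Id1 or Id2. The pooled Wdr5 peak there met 1 of the 3 replicate lists at Smad7, 1 at Id3 and 0 at Smad6. At Id3 the replicate peak ended at 135700090, before the shared stretch. Of the stretches covered by at least 5 other lists, 91.6% held Wdr5 across the genome. At Smad7 it was on 4 of 4 such stretches and at Id3 on 1 of 1, but at Id1 on 0 of 1 and at Id2 on 0 of 2. The corresponding share was 38.6% for MLL1, which was on 4 of 4 at Smad7, 1 of 1 at Id2 and at Id3 and 0 of 1 at Id1. For LSD1 it was 38.7% in myoblasts and 41.9% in myotubes. LSD1 in myoblasts was on 0 of 1 stretch at Smad6, 1 of 6 at Smad7, 1 of 1 at Id1, 0 of 3 at Id2 and 1 of 1 at Id3. In myotubes it was on 1 of 5 at Smad7 and 1 of 1 at Id1, and on none at Smad6, Id2 or Id3. For Wdr5 and MLL1, Smad6 had 0 stretches covered by at least 5 other lists, so it could not be counted. The pooled MLL1 peaks on the stretches of Id2 and Id3 met no MLL1 replicate list. Both MLL1 replicate lists covered 0 of the Id3 window, as of the Id1 window. With 0 to 6 stretches per gene, no difference between the genes was tested.

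Overlap with Menin peaks was counted for 5 of the other lists. All 12 ING1 myoblast peaks, all 14 MLL1 peaks and all 8 Sin3A peaks overlapped a Menin peak, against 87.8%, 74.0% and 67.8% of those lists across the genome. For Wdr5 it was 17 of 24 (29.2% genome-wide), and for MLL3 11 of 33 (9.02%). By contrast 7 of 12 ING1 myoblast peaks overlapped Wdr5, where 83.9% did across the genome. Between states, 10 of 11 ING1 myotube peaks overlapped an ING1 myoblast peak (62.1% genome-wide) and 7 of 12 myoblast peaks a myotube peak (72.0%). In myotubes 6 of 8 Sin3A peaks overlapped ING1 (52.5%), and 7 of 11 ING1 peaks overlapped Sin3A (79.7%). Peaks of 1 gene share a window, so these counts rest on 5 loci. Menin peaks covered from 6.37% (Smad6) to 57.4% (Smad7) of a window and 2.62% of the genome. The comparisons with genome-wide overlap do not allow for this.

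Replicate lists backed these peaks unevenly. Of the 91 pooled peaks in the windows, 47 met at least 1 replicate list of their group, 20 met every one and 44 met none. Menin was the best supported, with 19 of 22 peaks met, 16 of them by both lists, where 28.9% of Menin peaks were met across the genome. The median pooled Menin peak was 658 bp wide, while the widest in each window was 4665 to 8843 bp. Wider peaks meet an overlap of 1 bp more easily, and the genome-wide share does not allow for width. For ING1 in myoblasts it was 9 of 12 (58.4% genome-wide), for Sin3A 4 of 8 (63.4%), for MLL1 5 of 14 (40.5%), for Wdr5 8 of 24 (16.8%) and for ING1 in myotubes 2 of 11 (32.7%). No replicate list met the Wdr5 peak on the shared stretch of Smad6 or the MLL1 peaks on those of Id2 and Id3. The ING1 myotube peaks of Smad6, Id2 and Id3 were likewise met by none.

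In covered bases of the replicate lists, Menin averaged 39.5% ± 5.17 at Smad7, 36.3% ± 4.39 at Id3, 35.4% ± 3.97 at Id1, 34.2% ± 1.45 at Id2 and 3.71% ± 1.12 at Smad6 (SD, n = 2 lists each). Among the windows other than Smad6 neighbouring means in this order differed by less than their SD. MLL1 averaged 8.60% ± 6.30 at Smad7, 2.18% ± 3.08 at Id2, 0.559% ± 0.790 at Smad6 and 0 at Id1 and Id3 (n = 2). Wdr5 averaged 2.30% ± 3.25 at Smad7, 2.19% ± 2.46 at Id1, 0.930% ± 1.61 at Id2, 0.785% ± 1.36 at Id3 and 0.607% ± 0.129 at Smad6 (n = 3). Sin3A averaged 3.67% ± 5.18 at Id2, 1.94% ± 2.74 at Id1, 0.836% ± 1.18 at Smad7 and 0 at Smad6 and Id3 (n = 2). For MLL1, Wdr5 and Sin3A the SD was close to or above the mean at most windows, so no order of the genes stands out from the spread. All Sin3A values above 0 came from replicate 1, whose list was the longer.

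**Figure D5:**
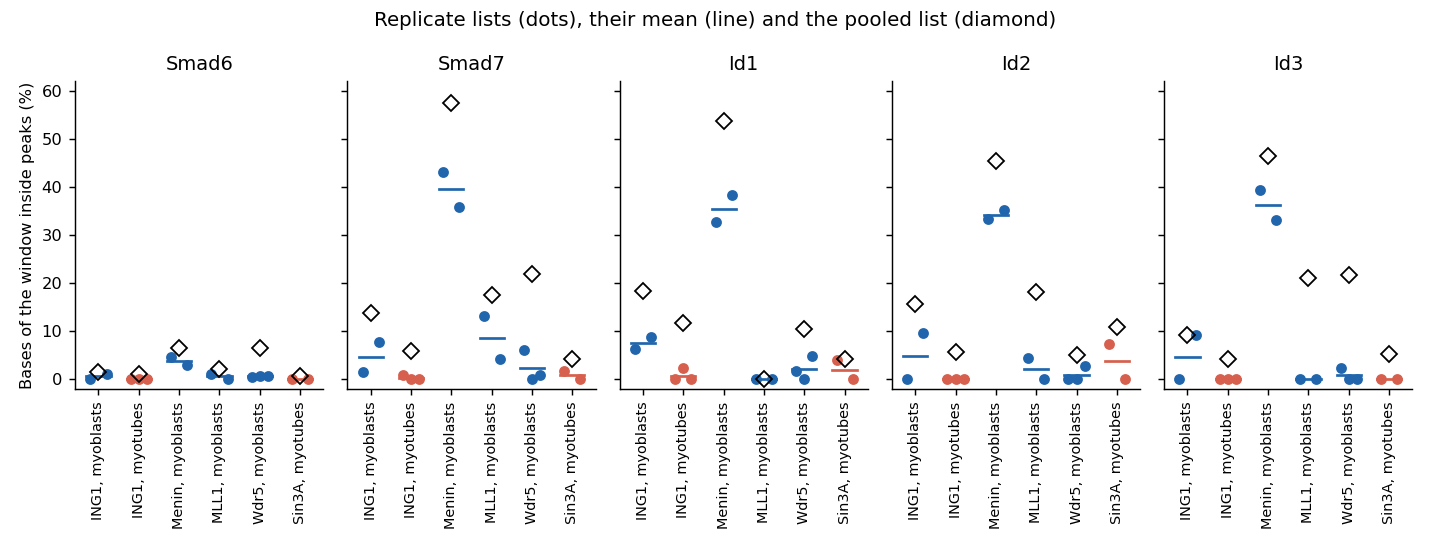
Percentage of bases of each window inside peaks, with 1 dot per replicate list, a line at their mean and a diamond for the pooled list, for the 6 groups with replicates (blue myoblasts, red myotubes). The Menin dots are the highest at Smad7, Id1, Id2 and Id3, at 32.6% or more where no other dot passes 13.1%, and the pooled lists lie above the replicate means except where both are 0.

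ING1 was the protein with replicate lists in both states, and the comparison asks whether its peaks at these genes differed between myoblasts and myotubes. At Id1 ING1 covered 6.31% and 8.79% of the window in the 2 myoblast lists and 0, 2.21% and 0 in the 3 myotube lists. The myotube mean was lower by a difference of -6.81 percentage points. At Smad7 the myoblast lists covered 1.53% and 7.75% and the myotube lists 0.900%, 0 and 0, a difference of -4.34 points. An exact two-sided permutation test gave p = 0.2 for each, the smallest p that 2 against 3 lists allow, and 0.5 after Benjamini-Hochberg adjustment over the 5 windows. How often other stretches of the genome had both myoblast lists above all 3 myotube lists was not counted. At Smad6, Id2 and Id3 the first myoblast list and all 3 myotube lists had no peak, and the second myoblast list covered 1.13%, 9.65% and 9.11%. The exact permutation p was 0.8 for each of these, adjusted 0.8, and the means were 0.564% ± 0.797, 4.83% ± 6.82 and 4.56% ± 6.44 in myoblasts (SD, n = 2).

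No ING1 difference between the states passed the exact permutation test at any of the 5 windows. With a smallest possible p of 0.2 in that test, none could have, so this outcome says nothing of a difference. The lists differed in length, with 428 and 5528 peaks in myoblasts and 2163, 2502 and 126 in myotubes. Of the 2 myoblast lists the longer covered more of every window, but between the states the 428-peak list covered more of Id1 and Smad7 than each myotube list. The shorter myoblast list held 2 peaks in the windows, against 12 in the other myoblast list and 1, 1 and 0 in the myotube lists. Coverage was also divided by the share of the genome each list covers. At Id1 this gave 723 and 59.0 in the myoblast lists and 0, 37.3 and 0 in the myotube lists. At Smad7 it gave 175 and 52.0 against 18.0, 0 and 0, with an exact permutation p of 0.2 at both genes. At Smad6, Id2 and Id3 the exact permutation p was 0.8. No myotube list had a peak there, so the division could not change the direction. The part of list length or sequencing depth in these differences was not tested. In the pooled lists ING1 had a peak in all 5 windows in both states, and covered fewer bases in myotubes at each.

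LSD1 had a list in each state and no replicate, so its values carry no test. At Id3 it covered 5.07% of the window in myoblasts and had no peak in myotubes. At Id1 it covered 6.70% in myoblasts and 6.48% in myotubes. At Smad7 coverage was 0.609% in myoblasts and 2.39% in myotubes, and at Smad6 0 and 1.01%. The myotube list was the longer, with 16504 peaks against 4442, and the Smad7 order turned when it was shortened to its 4442 widest peaks, which left no LSD1 myotube peak in that window.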

How the data were processed

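ChIP-seq peak lists of 17 samples were analysed. The 10 inputs and the 6 samples for expression profiling were left out. The deposited values are not counts. Per the file headers they are the left and right ends of each peak as positions in bp, with no height or p-value, and 2 of the 23 lists had no header line. Bowtie 0.12.9, SAMtools 0.1.19 and bedtools 2.17.0 are named with build mm9, per the submitters' processing notes. No peak caller, threshold or pooling method is given in the sources used here. Left ends were taken as 0-based, and printed starts are 1-based. The mitochondrial chromosome was left out.

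Overlaps of at least 1 bp, covered bases and genome stretches were computed in Python 3.11.15 with numpy 2.4.6 and scipy 1.17.1, and plotted with matplotlib 3.10.9. The overlap and coverage code was tested on simulated data. ING1 was compared by exact permutation over replicate lists, with 10 arrangements. Replicates 1 and 2 of ING1 share only a number, and the fit with that block is an alternative. In each window the regions named were the stretch with most lists, the widest peaks and merged regions of at least 4 lists; other peaks given by position, and the overlap counts, were chosen after their values were seen. The members and lists were chosen with earlier results of these data known. Alternatives were stricter overlap, the wider 50% of peaks, lists of equal length (4442 peaks), unions of replicate lists, omission of each replicate and windows widened by 10 kb. A motif search used RefSeq promoters of GRCm38.p6, and 3 of the 5 genes matched. Other genes of the pathway were not counted, since no mm9 annotation was used here.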

Additional observations from a re-analysis of the deposited data

How the results depend on the processing

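Of the lists with a peak, Smad6 and Id1 kept 5 each rather than 8 when every list was shortened to 4442 peaks, and Id3 had 5 rather than 8 with unions of the replicate lists. Leaving out 1 replicate from those unions gave 5 to 6 lists at Smad6 and 4 to 5 at Id3, with 4 without replicate 2 of ING1 in myoblasts or replicate 1 of Wdr5. Lists at a single base fell from 5 to 3 at Smad6 with unions (3 with each replicate left out), and from 8 to 5 at Smad7 with the wider 50% of peaks and with equal lengths. With 1 replicate left out of the unions, lists at a single base were 3 to 4 at Id2 (6 in full). The 3 came without replicate 2 of ING1 in myoblasts or replicate 1 of Sin3A. At Id3 the same setting gave 4 to 5 (7 in full). Without replicate 2 of ING1 in myoblasts the ING1 difference was 0 at Smad6, Id2 and Id3. With each replicate left out in turn it ran from -1.13 to 0 points at Smad6, -9.65 to 0 at Id2, -9.11 to 0 at Id3, -7.45 to -1.23 at Smad7 and -8.05 to -5.58 at Id1. A replicate block over numbers 1 and 2 gave -0.564 at Smad6, -4.19 at Smad7, -6.44 at Id1, -4.83 at Id2 and -4.56 at Id3, and changed no direction. The deviations of same-numbered lists correlated at -0.370 and -0.456, but each myotube list had a peak in at most 1 window, so this says nothing of pairing. LSD1 at Smad7, 1.78 points in full, was -0.609 with the shortened myotube list and 1.34 with the wider 50% of peaks. Of the 45 covered percentages, alternatives chosen after seeing the data moved 22 by more than the SD of the replicate lists (any change for single lists) with unions, 15 with the wider 50% of peaks and 23 with equal lengths. Shorter lists follow from the construction of these alternatives; the cause of other shifts was not tested.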
